A study of Homo sapiens with 8 samples.

Results

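Small nucleolar RNA (snoRNA) host genes and abundant nuclear long non-coding RNAs were followed in HCT116 cells and in a UHRF1-deficient derivative. The members were the genes named SNHG with a number, together with GAS5, ZFAS1, EPB41L4A-AS1, MALAT1, NEAT1, DANCR and CYTOR. They came to 35 of the 60649 gene identifiers in the abundance tables, of which 28 were SNHG genes and 7 were the others. They were chosen by name, with earlier results of these data known.

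The study asked how far loss of UHRF1, a cofactor that brings the maintenance DNA methyltransferase DNMT1 to replicated DNA, changes gene expression in a colorectal carcinoma line. HCT116 is an established human colorectal carcinoma cell line, and UF1hypo is a single HCT116 clone in which an exon of 1 UHRF1 allele was deleted. Each line carried a stably integrated lentiviral short hairpin, either the scrambled control shScr or shUHRF1, and polyadenylated RNA was sequenced from the selected pools. The 4 groups, HCT116 shScr, HCT116 shUHRF1, UF1hypo shScr and UF1hypo shUHRF1, had 2 libraries each. All 8 libraries therefore share the HCT116 background and a drug-selected hairpin vector. The labels do not say that the libraries of a group came from separate cultures, so p-values measure only the spread between these libraries. Because the clone is a single one, deletion of the allele and any other property of that clone cannot be told apart.

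Most snoRNAs are cut out of the introns of longer transcripts and guide chemical modification of ribosomal and spliceosomal RNA. In a snoRNA host gene the spliced exons are largely a by-product, often exported and degraded by nonsense-mediated decay, and many such hosts start with the pyrimidine tract typical of ribosomal protein genes. MALAT1 and NEAT1 are retained in the nucleus, where MALAT1 localises to nuclear speckles and the long isoform of NEAT1 builds paraspeckles, while CYTOR is an lncRNA often raised in carcinomas. Since poly(A) libraries measure the spliced host and not the excised snoRNA, every value here describes the host transcript.

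By position on GRCh38, 32 of the 35 members contained at least 1 annotated snoRNA or small Cajal body RNA gene. CYTOR, MALAT1 and NEAT1 contained none. GAS5 (chr1:173858559-173868882, minus strand) held 11, which was the highest number among the expressed members, followed by SNHG1 (chr11:62851984-62855953, minus strand) with 9. DANCR (chr4:52712325-52723623, plus strand) held 1, SNORA26, and EPB41L4A-AS1 (chr5:112160526-112164818, plus strand) held 1, SNORA13. All 35 were annotated as lncRNA genes, so the values given are those of exonic sequence of non-coding transcripts.

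The starts of the hosts are shown first, since a pyrimidine tract at the start is a feature of the class that the choice of members did not use. RefSeq promoter sequences (GRCh38.p14) were matched for 30 of the 35 members. Each window below runs from 10 bases before to 20 bases from the RefSeq start on the transcript strand. Capitals mark a C followed by at least 5 pyrimidines with the C within 10 bases of the start, searched on the transcript strand only, and windows without capitals held no such run.
SNHG4 chr5:139274091-139274120, plus: ctcccggctgCCCTTTCCCCTCCggcctct
SNHG12 chr1:28581854-28581883, minus: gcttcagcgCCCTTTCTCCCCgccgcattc
SNHG32 chr6:31834906-31834935, plus: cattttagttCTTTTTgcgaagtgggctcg
SNHG19 chr16:2155339-2155368, minus: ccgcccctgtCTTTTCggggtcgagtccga
SNHG16 chr17:76557754-76557783, plus: gggcggtctcgcgttCTTTTCgaggtcggc
SNHG29 chr17:16438977-16439006, plus: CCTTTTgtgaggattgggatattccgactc
ZFAS1 chr20:49278632-49278661, plus: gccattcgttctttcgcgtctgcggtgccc
DANCR chr4:52712384-52712413, plus: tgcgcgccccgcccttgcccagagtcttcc
CYTOR chr2:87455417-87455446, plus: atgagtcatctcgttccaatgagaatgaag

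The first 6 windows hold the tract and the last 3 do not. A tract was present in 13 of 30 members (43.33%), in 6727 of 27305 RefSeq genes (24.64%) and in 55 of 64 cytosolic ribosomal protein genes (85.94%). CpG dinucleotides were dense in the 300 bases around these starts, with a median of 25 in the members and 16 in all RefSeq genes, while the windows of CYTOR and GAS5 held 5 each. The RefSeq start lay within 100 bases of the gene start in the abundance tables for 18 of the 30 members. Among the printed windows it lay 1259 bases away for SNHG12, 646 for CYTOR, 464 for ZFAS1, 308 for SNHG32 and 220 for SNHG29. A match describes letters in a window and not a measured start site.

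Expression was given as TPM, a level per transcript length that is scaled to the same total in each library and can be compared between genes. TPM exceeded 1 in at least 1 library for 31 members and in every library for 29. SNHG14, SNHG18, SNHG27 and SNHG28 stayed at or below 1 in all libraries. The mean TPM over the 8 libraries exceeded 10 for 27 members and 100 for 7. The members together took between 0.235% and 0.329% of the TPM of a library, and both the lowest value, 0.235%, and 0.290% belonged to UF1hypo shUHRF1.

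**Figure D1:**
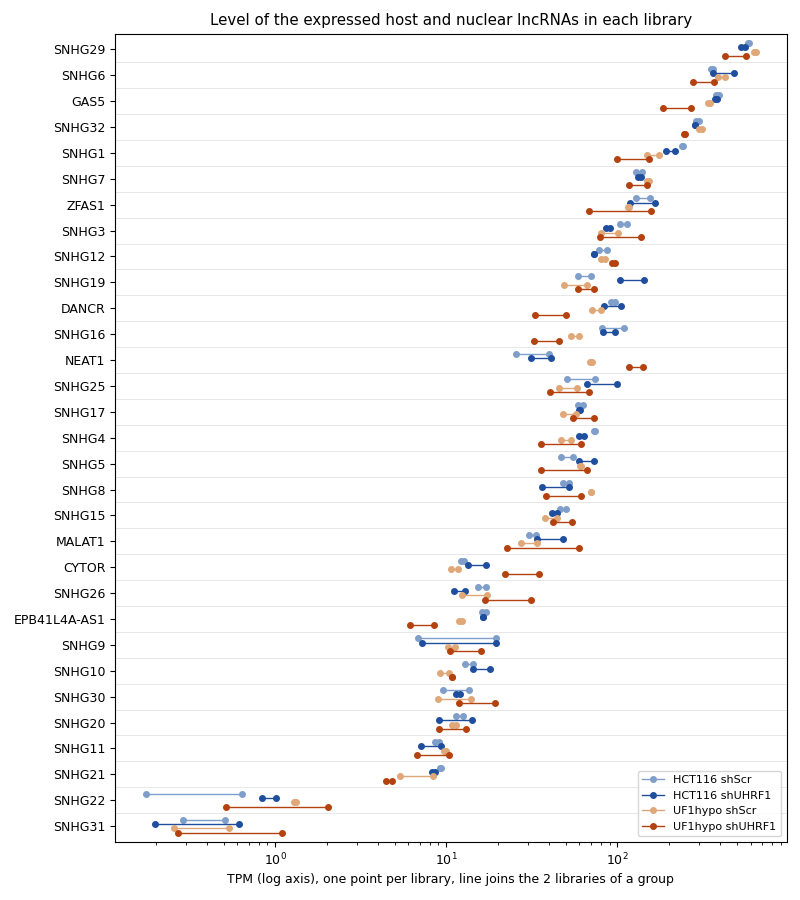
TPM of the 31 members above 1 TPM in at least 1 library, on a log axis, ordered by mean TPM, with a point for each library and a line joining the 2 libraries of a group. SNHG29 lies at the top with a mean of 565 TPM, and the lines of UF1hypo shUHRF1 are the longest for many members, as for MALAT1 with 22.6 and 59.4 TPM.

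Each library held 5.42 to 7.83 gigabases of aligned sequence, as the coverage and FPKM columns together give it. UHRF1, the target of the hairpin, was measured at 87.5 and 98.4 TPM in HCT116 shScr and 31.7 and 32.7 in HCT116 shUHRF1. It was at 47.3 and 50.6 TPM with shScr and 34.1 and 21.1 with shUHRF1 in UF1hypo, so its levels in the groups with shUHRF1 lay below their controls in both lines. In limma, UHRF1 passed in UF1hypo (log2 fold change -0.84, adjusted p = 0.0468). It missed in HCT116, where the fitted fall was larger (log2 fold change -1.50, adjusted p = 0.0744 in limma). The epithelial markers EPCAM, KRT8, KRT18, KRT19 and CDH1 summed to between 4341 and 12687 TPM, highest in UF1hypo shUHRF1. EPCAM alone went the other way in the clone, at 357 and 327 TPM with shScr and 174 and 314 with shUHRF1. Of the 5 leukocyte markers only CD68 exceeded 1 TPM, and the defining marker PTPRC stayed near 0. The leukocyte sum was 7.10 to 14.4 TPM in HCT116, and 40.6 and 42.8 with shScr and 108 and 78.4 with shUHRF1 in UF1hypo. Of the 5 fibroblast and endothelial markers only COL1A1 exceeded 1 TPM. Their sum was 66.8 and 38.4 TPM in UF1hypo shUHRF1 and 21.3 to 29.0 TPM in the other groups. The part of any of these marker changes in the results below was not tested. A lower level in such bulk RNA could come from fewer cells with the transcript or from less of it per cell, which cannot be told apart.

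The 2 UF1hypo shUHRF1 libraries differed from each other more than those of any other group. Over the 29 members above 1 TPM everywhere, the higher library exceeded the lower by more than 1.5 times for 14 members (48.3%) in UF1hypo shUHRF1 and for 2 members (6.9%) in each of the other 3 groups. Among all genes above 1 TPM in both libraries of the group, the same held for 40.8% in UF1hypo shUHRF1 and for 7.9% to 9.2% elsewhere. The difference between these libraries followed transcript GC content, with a Spearman correlation of -0.84 over 12962 genes of the same library pair, given as a description. The same correlation was 0.54 for the UF1hypo shScr pair, and 0.019 and 0.055 for the pairs of HCT116. The members had a median transcript GC content of 47.16%, against 50% over all genes, and their median difference between replicate 2 and replicate 1 of UF1hypo shUHRF1 was 0.40 on the log2 scale, against 0.08 over all genes. Results in UF1hypo are therefore given with the values of both libraries.

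Among the strongest hosts, SNHG29 was the most abundant, at 584 and 586 TPM with shScr and 527 and 558 with shUHRF1 in HCT116, against 630 and 646 with shScr and 428 and 566 with shUHRF1 in UF1hypo. SNHG29, whose tract in the window above lies wholly before the RefSeq start, hosts SNORD49A, SNORD49B and SNORD65. Both UF1hypo shUHRF1 libraries lay below both UF1hypo shScr libraries, as for 16.3% of all genes. The log2 fold change of -0.37 did not pass (limma, SE 0.155, adjusted p = 0.169). SNHG6, host of SNORD87, stood at 361 and 351 TPM with shScr and 360 and 482 with shUHRF1 in HCT116, against 425 and 386 with shScr and 276 and 367 with shUHRF1 in UF1hypo. Its UF1hypo groups did not overlap either (log2 fold change -0.35, adjusted p = 0.293 in limma).

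GAS5, the host with the most snoRNAs among those expressed and a transcript known to accumulate when translation stops, was measured at 376 and 394 TPM in HCT116 shScr and at 383 and 373 TPM in HCT116 shUHRF1. In the clone it was at 340 and 346 TPM with shScr and at 185 and 269 TPM with shUHRF1. The HCT116 groups overlapped and the UF1hypo groups did not. The log2 fold change with knockdown in UF1hypo was -0.62 (SE 0.179) and missed the threshold (limma, adjusted p = 0.0642), while in HCT116 it was -0.03 (adjusted p = 0.998). The difference between these effects, -0.59 (SE 0.254), did not pass (limma, adjusted p = 0.288). GAS5 passed in UF1hypo when each library was corrected for GC content and length (limma, adjusted p = 0.00336) and under median-ratio scaling (limma, adjusted p = 0.0450). It did not pass with the 4 UF1hypo libraries alone (limma, adjusted p = 0.259) or as coverage over merged exons (limma, adjusted p = 0.166), and with a library left out it passed in 2 of 8 fits, with log2 fold changes from -0.89 to -0.35.

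SNHG32, host of SNORD48 and SNORD52, had one of the narrowest ranges. Its TPM was 287 and 300 with shScr and 285 and 284 with shUHRF1 in HCT116, against 313 and 301 with shScr and 247 and 246 with shUHRF1 in UF1hypo. The last pair lay below the other 6 libraries, and the log2 fold change in UF1hypo was -0.31 (SE 0.122, adjusted p = 0.146 in limma). SNHG1, with 9 snoRNA genes in its introns, had its highest levels in HCT116 shScr, at 238 and 243 TPM with shScr and 216 and 192 with shUHRF1 in HCT116, against 176 and 149 with shScr and 99.7 and 153 with shUHRF1 in UF1hypo. The 2 shScr groups did not overlap, as for 33.67% of all genes lower in the clone and 26.61% higher. The log2 fold change of -0.57 (SE 0.208) missed the threshold over all 8 libraries (limma, adjusted p = 0.216). It passed with the 4 shScr libraries alone (limma, adjusted p = 0.00926), where 15.8% of all genes passed.

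**Figure D2:**
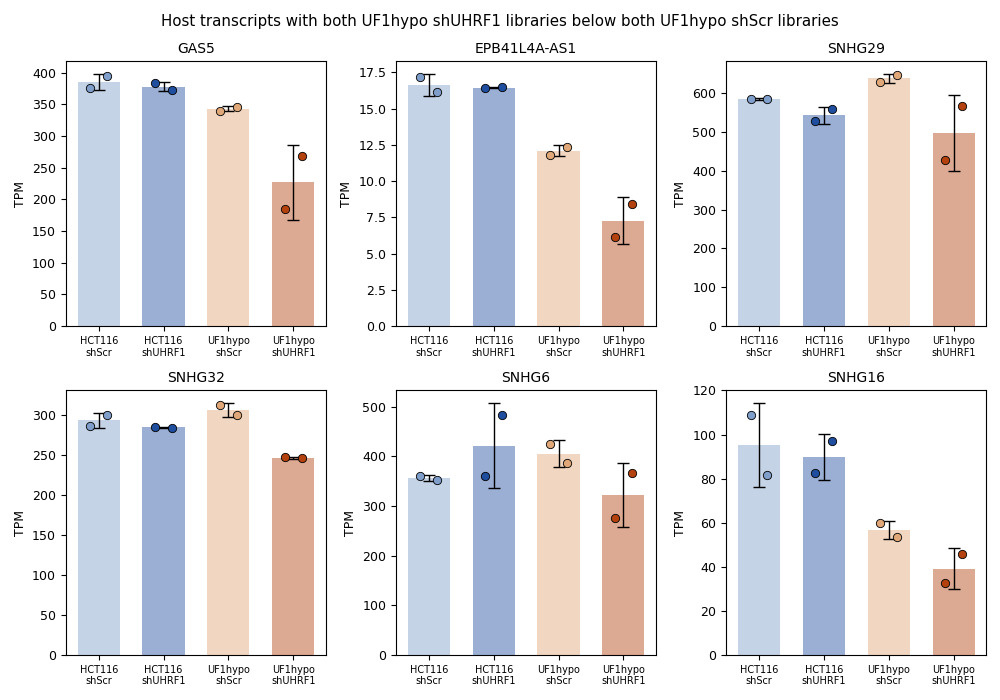
TPM of 6 snoRNA hosts, with bars from 0 at the group mean, error bars of 1 SD (n = 2) and a point for each library. The 6 hosts were taken from the 9 members with both UF1hypo shUHRF1 libraries below both UF1hypo shScr libraries, so that order follows from the choice. DANCR, SNHG8 and SNHG21, which also met that rule, are not drawn here. GAS5, for example, had 185 and 269 against 340 and 346 TPM. None of the 6 had an adjusted p below 0.05 in limma over all 8 libraries, while DANCR did (adjusted p = 0.0390).

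EPB41L4A-AS1, host of SNORA13, was a weaker transcript with close replicates except in UF1hypo shUHRF1. It was at 17.2 and 16.1 TPM with shScr and 16.4 and 16.5 with shUHRF1 in HCT116, against 11.8 and 12.4 with shScr and 6.13 and 8.44 with shUHRF1 in UF1hypo. All UF1hypo libraries lay below all HCT116 libraries. With knockdown in UF1hypo the log2 fold change was -0.67 (SE 0.200) and missed the threshold (limma, adjusted p = 0.0686). It passed when coverage over the merged exons took the place of TPM (log2 fold change -0.71, adjusted p = 0.0350 in limma), a measure added after the data were seen and explained with NEAT1. It also passed under median-ratio scaling (limma, adjusted p = 0.0460) and with the GC and length correction (limma, adjusted p = 0.00786), where 23.7% of all genes passed. It did not pass with the 4 UF1hypo libraries alone (limma, adjusted p = 0.266), and with a library left out it passed in 1 of 8 fits, with log2 fold changes from -0.88 to -0.47.

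SNHG16, host of SNORD1A, SNORD1B and SNORD1C, was at 109 and 81.7 TPM with shScr and 82.5 and 97.2 with shUHRF1 in HCT116, against 59.7 and 53.8 with shScr and 32.8 and 45.8 with shUHRF1 in UF1hypo. Its 4 UF1hypo libraries were lower than its 4 HCT116 libraries. The log2 fold change was -0.72 between the lines with shScr (SE 0.217, adjusted p = 0.129) and -0.54 with knockdown in UF1hypo (SE 0.215, adjusted p = 0.157), neither of which passed in limma. With the 4 shScr libraries alone, the first did (limma, adjusted p = 0.0130).

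SNHG7, host of SNORA17A and SNORA17B, kept to a narrow range, at 138 and 129 TPM with shScr and 132 and 138 with shUHRF1 in HCT116, against 148 and 153 with shScr and 149 and 116 with shUHRF1 in UF1hypo. SNHG3, which hosts SNORA73A and SNORA73B, was at 113 and 103 TPM with shScr and 85.7 and 91.0 with shUHRF1 in HCT116, against 102 and 80.3 with shScr and 78.7 and 137 with shUHRF1 in UF1hypo. SNHG12 hosts 4 snoRNAs and has a tract at its RefSeq start, which lies 1259 bases from the gene start used for TPM. SNHG12 was at 87.1 and 77.9 TPM with shScr and 72.6 and 73.0 with shUHRF1 in HCT116, against 80.7 and 85.1 with shScr and 93.4 and 96.9 with shUHRF1 in UF1hypo. The knockdown libraries of SNHG12 lay below their controls in HCT116 and above them in UF1hypo, by log2 fold changes of -0.18 and 0.20, and neither passed (limma, adjusted p = 0.960 and 0.405).

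ZFAS1, which hosts SNORD12, SNORD12B and SNORD12C, showed a wide spread after knockdown in the clone. Its TPM was 155 and 129 with shScr and 118 and 167 with shUHRF1 in HCT116, against 115 and 117 with shScr and 68.5 and 157 with shUHRF1 in UF1hypo. The 2 UF1hypo shUHRF1 libraries thus lay on either side of both UF1hypo shScr libraries, and the log2 fold change of -0.16 had a 95% interval from -0.95 to 0.64.

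SNHG19, host of SNORD60, was the member with the lowest p in HCT116, where none passed over all 8 libraries. It was at 69.8 and 58.8 TPM in HCT116 shScr and 104 and 143 in HCT116 shUHRF1, against 48.7 and 66.6 with shScr and 72.6 and 58.6 with shUHRF1 in UF1hypo. The HCT116 groups did not overlap, as for 19.29% of all genes higher and 26.85% lower after knockdown, and the UF1hypo groups did. The log2 fold change in HCT116 was 0.92 (SE 0.227, adjusted p = 0.344 in limma), and with the 4 HCT116 libraries alone, whose spread was smaller, it passed (SE 0.148, adjusted p = 0.0146 in limma). The difference between the lines, -0.72 (SE 0.321), did not pass (limma, adjusted p = 0.302).

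DANCR, an lncRNA that hosts SNORA26 and is known to keep progenitor cells undifferentiated, was lower in the clone after knockdown. It was at 97.0 and 91.5 TPM with shScr and 83.5 and 105 with shUHRF1 in HCT116, against 71.5 and 80.0 with shScr and 50.4 and 33.1 with shUHRF1 in UF1hypo. The UF1hypo shUHRF1 libraries lay below the other 6, and the HCT116 groups overlapped. DANCR fell in UF1hypo with a log2 fold change of -0.87 (limma, SE 0.218, adjusted p = 0.0390), which is below the size set for a call. With the 4 UF1hypo libraries alone it did not pass (limma, adjusted p = 0.173), and under median-ratio scaling it did not pass either (limma, adjusted p = 0.0585). The difference from HCT116, -0.86 (SE 0.308), missed the threshold (limma, adjusted p = 0.200). The retroviral envelope gene ERVMER34-1 overlaps DANCR on the opposite strand. It was at 13.4 and 12.4 TPM with shScr and 5.51 and 7.85 with shUHRF1 in UF1hypo, a fall of the same size (log2 fold change -0.87, adjusted p = 0.0315 in limma). Whether counting used strand is not given in the sources used here, so reads of the overlapping parts cannot be told apart.

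CYTOR was the member called in the clone. It was at 12.6 and 12.3 TPM with shScr and 13.4 and 17.0 with shUHRF1 in HCT116, against 11.7 and 10.7 with shScr and 35.1 and 22.2 with shUHRF1 in UF1hypo. The last pair lay above the other 6 libraries. CYTOR rose in UF1hypo with a log2 fold change of 1.25 (limma, SE 0.244, adjusted p = 0.0152), and it stood at 0.26 in HCT116 (limma, SE 0.242, adjusted p = 0.973). The rise did not pass with the 4 UF1hypo libraries alone (limma, adjusted p = 0.0883), nor without replicate 1 or replicate 2 of UF1hypo shScr (limma, adjusted p = 0.0968 and 0.112). The difference between the lines, 0.99 (SE 0.344), missed the threshold (limma, adjusted p = 0.190). MIR4435-2HG is a near-identical copy of CYTOR on the same chromosome, and the tables may divide shared reads between the copies. It was at 11.35 and 10.49 TPM with shScr and 25.7 and 26.4 with shUHRF1 in UF1hypo, with a log2 fold change of 1.18 (limma, SE 0.202, adjusted p = 0.00855). In HCT116 it had a log2 fold change of -0.29 (limma, SE 0.205, adjusted p = 0.938), where CYTOR had 0.26. Its difference between the lines, 1.48 (SE 0.286), passed (limma, adjusted p = 0.0338), unlike that of CYTOR. Which copy gave the reads is uncertain for both.

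**Figure D3:**
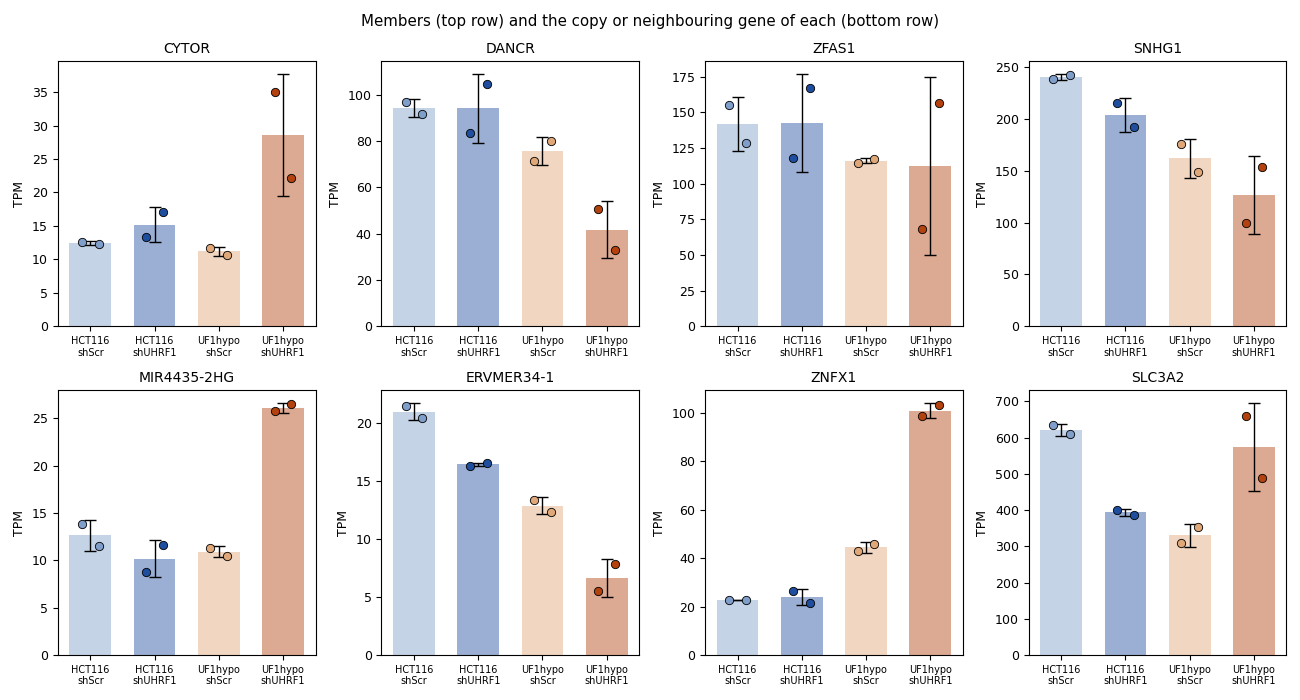
TPM of CYTOR, DANCR, ZFAS1 and SNHG1 (top) and of the copy or neighbouring gene of each, MIR4435-2HG, ERVMER34-1, ZNFX1 and SLC3A2 (bottom), with bars from 0 at the group mean, error bars of 1 SD (n = 2) and a point for each library. CYTOR and MIR4435-2HG are both highest in UF1hypo shUHRF1, DANCR and ERVMER34-1 are both lowest there, and ZNFX1 reaches 98.7 and 103 TPM while the ZFAS1 libraries lie at 68.5 and 157.

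NEAT1, the scaffold RNA of paraspeckles (chr11:65422774-65445540, plus strand), was higher in the clone than in HCT116 already with the control hairpin. Its TPM was 39.6 and 25.7 with shScr and 41.0 and 31.3 with shUHRF1 in HCT116, against 68.9 and 70.8 with shScr and 117 and 142 with shUHRF1 in UF1hypo. All UF1hypo libraries lay above all HCT116 libraries, and within the clone both shUHRF1 libraries lay above both shScr libraries. NEAT1 rose between the lines with shScr by a log2 fold change of 1.105 (limma, SE 0.233, adjusted p = 0.0389) and with knockdown in UF1hypo by 0.88 (limma, SE 0.233, adjusted p = 0.0489). In HCT116 the log2 fold change was 0.16 (limma, SE 0.233, adjusted p = 0.998). The rise with knockdown was at the edge of the threshold, since it did not pass with the 4 UF1hypo libraries alone (limma, adjusted p = 0.107) or when any single library was left out (adjusted p from 0.0502 to 0.240). The difference between the lines, 0.71 (SE 0.330), did not pass (limma, adjusted p = 0.324).

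NEAT1 is made in a short and a long isoform that share their 5′ end, and TPM scales each isoform by its own length. The ratio of coverage to FPKM gives the mean transcript length that entered the value, here as a percentage of the 22767 bases of merged exons of NEAT1. The second longest annotated transcript covers 3524 bases, or 15.48%. The mean length was 60.6% and 87.0% with shScr and 55.9% and 75.5% with shUHRF1 in HCT116, against 57.6% and 56.6% with shScr and 38.8% and 37.2% with shUHRF1 in UF1hypo. The knockdown libraries of the clone thus had the lowest values of all 8, and the HCT116 libraries spread widely within each group.

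Coverage over the merged exons does not depend on that division between isoforms. Brought to the TPM scale, it was 24.03 and 22.4 with shScr and 22.9 and 23.6 with shUHRF1 in HCT116, against 39.6 and 40.1 with shScr and 45.5 and 52.7 with shUHRF1 in UF1hypo. On this measure the replicates were close and the order of the groups was the same. The log2 fold change between the lines with shScr was 0.76 (limma, SE 0.137, adjusted p = 0.0317), while that with knockdown in UF1hypo was 0.29 and did not pass (limma, SE 0.133, adjusted p = 0.222). NEAT1 was higher in the clone by both measures. As TPM, the difference between the lines did not pass without the TPM filter or the variance trend, and it passed in 2 of 8 fits with a library left out (log2 fold change from 0.80 to 1.41, adjusted p up to 0.301 in limma). Its rise with knockdown passed as TPM and not as coverage, and its mean transcript length was shorter there.

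**Figure D4:**
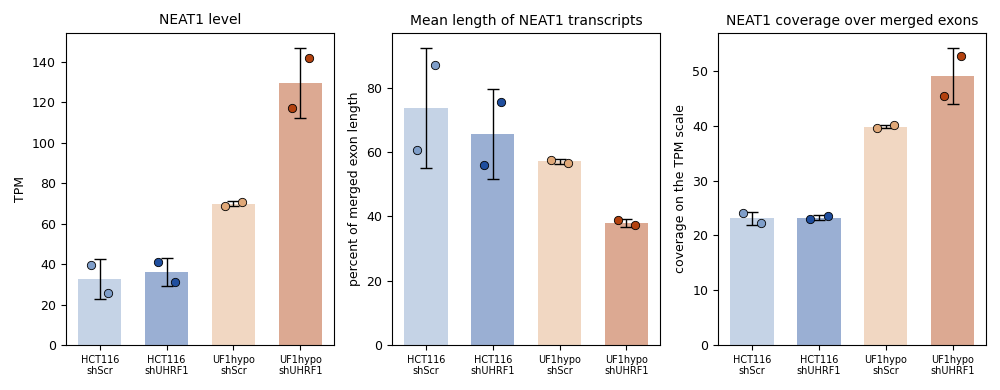
NEAT1 in each library as TPM (left), as mean transcript length in percent of its merged exons (middle) and as coverage over the merged exons on the TPM scale (right), with bars from 0 at the group mean, error bars of 1 SD (n = 2) and a point for each library. In UF1hypo shUHRF1 the TPM reaches 117 and 142, the mean length falls to 38.8% and 37.2%, and the merged coverage is 45.5 and 52.7.

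MALAT1 (chr11:65497688-65506516, plus strand), the neighbour of NEAT1 on chromosome 11, moved less than its replicates differed. It was at 33.4 and 30.5 TPM with shScr and 33.9 and 47.8 with shUHRF1 in HCT116, against 33.8 and 27.2 with shScr and 22.6 and 59.4 with shUHRF1 in UF1hypo. The last pair spanned the levels of all other libraries. The log2 fold change in UF1hypo was 0.27, with a 95% interval from -0.63 to 1.17, an interval that also holds the 0.88 of NEAT1. Its mean transcript length stayed between 94.4% and 98.1% in every library.

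Counted over the whole class, no member passed the test with knockdown in HCT116. Of 30 members tested, 0 were called (adjusted p below 0.05 and absolute log2 fold change above 1) and 0 had an adjusted p below 0.05 in limma, against 0.0177% of 16975 genes by either rule. At an unadjusted p below 0.05 there was 1 member, SNHG19, and 1042 genes (6.14%). The median log2 fold change of the members was -0.02, with 18 of 30 lower, and over all genes it was -0.04, with 55.9% lower. Under median-ratio scaling this median was 0.03, with 12 of 30 lower, so the members had no stable direction in HCT116.

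With knockdown in UF1hypo, 1 of 31 members was called (CYTOR) and 3 had an adjusted p below 0.05 in limma, CYTOR and NEAT1 higher and DANCR lower. The background was 8.24% of 18796 genes called and 11.0% with an adjusted p below 0.05, of which 9.11% were higher and 1.89% lower. The 3 of 31 members were near that share. Of the 31 members, 17 were lower, against 42.7% of all genes, and the median was -0.10 against 0.10 over all genes. Without replicate 1 of UF1hypo shUHRF1 the median of the members was 0.04, so it had no stable direction. Both shUHRF1 libraries lay below both shScr libraries for 9 members, against 16.3% of all genes, and above them for 4 members, against 32.1%. The 9 were SNHG29, SNHG6, GAS5, SNHG32, DANCR, SNHG16, SNHG8, EPB41L4A-AS1 and SNHG21, and the 4 were SNHG12, NEAT1, CYTOR and SNHG10. The number with an adjusted p below 0.05 depended on the libraries and on the joint correction for GC content and length. It was 0 with the 4 UF1hypo libraries alone, where 3.14% of all genes passed. It was 10 of 31 after correction for GC content and length, against 23.7% of all genes, and 12 of 30 without replicate 2 of UF1hypo shUHRF1, against 38.3%, so the share over all genes moved in the same way.

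The difference between the knockdown effects in the 2 lines was called for 0 of 31 members and had an adjusted p below 0.05 for 0 in limma, against 2.96% and 2.99% of 19762 genes. Of the 31 members, 19 were lower, against 41.1% of all genes. At an unadjusted p below 0.05 there were 5 members, namely CYTOR, DANCR, EPB41L4A-AS1, GAS5 and SNHG26, and 5 of 31 was near the 16.9% of all genes. The knockdown comparisons of the lines use different libraries, but each shares its controls with the comparison of the lines. In UF1hypo against HCT116 with shScr, 1 of 30 members was called (NEAT1), which was also the only one with an adjusted p below 0.05 in limma, against 2.64% and 3.16% of 17176 genes. There 20 of 30 members were lower, against 54.8% of all genes, and the median was -0.14, against -0.05. The number with an adjusted p below 0.05 was 5 with the 4 shScr libraries alone, namely NEAT1, SNHG1, SNHG16, SNHG4 and SNHG8, where 15.8% of all genes passed and 5 of 30 was near that share, and 0 without the trend of the variance.

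**Figure D5:**
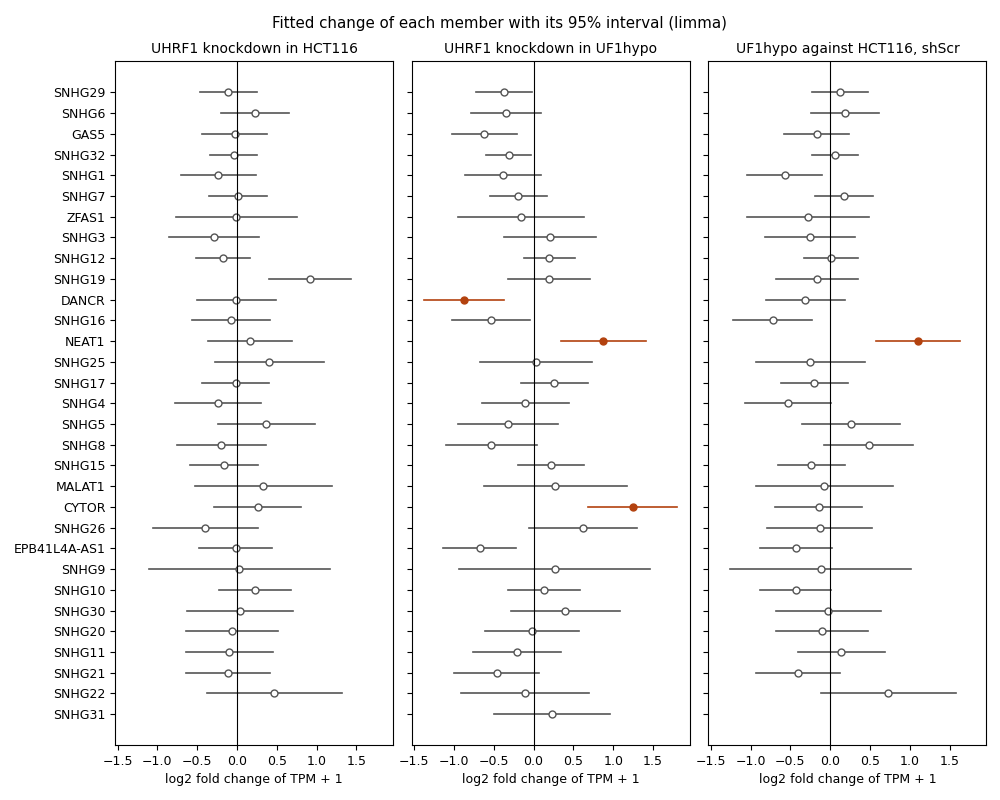
Log2 fold change of TPM + 1 with its 95% interval for each member in 3 comparisons, ordered by mean TPM, with filled points where the adjusted p was below 0.05 in limma. DANCR, NEAT1 and CYTOR are filled for the knockdown in UF1hypo, NEAT1 for UF1hypo against HCT116, and none for the knockdown in HCT116.

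With knockdown in UF1hypo, 6 of 11 members with a tract in the window were lower, with a median log2 fold change of -0.10, and 10 of 15 without one were lower, with a median of -0.16. A tract could lie wholly before the RefSeq start, as for SNHG29, and the window of GAS5, without one, lay 163 bases from its gene start. This split therefore cannot compare hosts by their transcribed first bases. The remaining members, all of them numbered SNHG hosts, lay between 0.175 and 99.1 TPM over all libraries, and none had an adjusted p below 0.05 in any comparison fitted over all 8 libraries. SNHG4, SNHG5, SNHG8, SNHG17 and SNHG26 passed in at least 1 alternative setting. SNHG26, host of SNORD93, went from 15.3 and 17.1 to 11.2 and 12.9 TPM with knockdown in HCT116 and from 17.3 and 12.4 to 16.9 and 31.5 TPM in UF1hypo. SNHG21 was lowest in UF1hypo shUHRF1, at 4.82 and 4.44 TPM, and SNHG9 spread widely in HCT116, at 19.6 and 6.86 TPM in the shScr libraries.

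Several members start close to a protein-coding gene. ZNFX1, a helicase of RNA silencing whose start lies 248 bases from that of ZFAS1 on the opposite strand, was at 22.9 and 22.7 TPM with shScr and 26.3 and 21.5 with shUHRF1 in HCT116, against 43.0 and 46.1 with shScr and 98.7 and 103 with shUHRF1 in UF1hypo. ZNFX1 rose with knockdown in UF1hypo (log2 fold change 1.16, adjusted p = 0.00350 in limma), where ZFAS1 had -0.16. SLC3A2, an amino acid transporter subunit that starts 51 bases from SNHG1, rose in UF1hypo with knockdown from 308 and 353 to 660 and 488 TPM (log2 fold change 0.78, adjusted p = 0.0221 in limma), where SNHG1 had -0.38. In HCT116 SLC3A2 went from 633 and 609 to 401 and 387 TPM (log2 fold change -0.66, adjusted p = 0.371 in limma), and the difference between the lines, 1.43, passed (limma, adjusted p = 0.0180). With shScr SLC3A2 was lower in the clone (log2 fold change -0.91, adjusted p = 0.0204 in limma), and ZNFX1 was higher (log2 fold change 0.94, adjusted p = 0.0185 in limma). MATR3, a nuclear matrix protein whose start lies 350 bases from that of SNHG4, fell there from 103 and 101 to 53.3 and 50.6 TPM (log2 fold change -0.96, adjusted p = 0.0389 in limma), where SNHG4 had -0.10. Of the 23 neighbouring or overlapping coding genes tested in that comparison, 4 had an adjusted p below 0.05, against 11.0% of all genes, the last being ERVMER34-1. In these 3 pairs the fit of the lncRNA did not pass where that of the coding gene did, and the differences within pairs were not tested. Fits of the coding genes pooled all 8 libraries and were not followed with the 4 UF1hypo libraries alone. With those 4 libraries, 3.14% of all genes and none of the members passed for the knockdown. ZNFX1 overlaps ZFAS1 on the opposite strand, and MATR3 lies on the same strand as SNHG4. Which gene gave the reads of any shared parts is therefore uncertain.

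Among proteins that work with these RNAs, the snoRNP proteins and assembly factors were lower in UF1hypo with knockdown for 15 of 17 genes, with a median log2 fold change of -0.28, against 42.7% lower over all genes. They were also lower for 13 of 17 with knockdown in HCT116, against 55.9%, and for 16 of 17 in UF1hypo against HCT116 with shScr, against 54.8%. With knockdown in UF1hypo, 0 rose and 2 fell in limma, NOLC1, a chaperone of snoRNPs (log2 fold change -0.85, adjusted p = 0.0226), and RUVBL1, a helicase of snoRNP assembly (log2 fold change -0.54, adjusted p = 0.0357). NOLC1 went from 233 and 215 to 102 and 149 TPM and RUVBL1 from 184 and 198 to 137 and 125 TPM. Over all genes, 11.0% had an adjusted p below 0.05 there, 9.11% higher and 1.89% lower. Protein-coding genes that host snoRNAs were lower for 17 of 20, against 42.7% of all genes, with a median of -0.27. Of these 20, 1 fell, RPL3 (log2 fold change -0.57, adjusted p = 0.0443 in limma), beside the same shares over all genes. RPL3 went from 2744 and 3063 to 2199 and 1726 TPM. Nonsense-mediated decay factors had 0 of 14 with an adjusted p below 0.05 and a median of 0.07, and paraspeckle and speckle proteins had 0 of 16 and a median of -0.06. In HCT116, none of these 4 lists had a gene with an adjusted p below 0.05. All fits of the lists pooled the 8 libraries and were not followed with the 4 UF1hypo libraries alone.

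RNAs mostly without a poly(A) tail were read as a sign of RNA selection. Their summed TPM, in the order of replicates 1 and 2, was 25.1 and 10.6 with shScr and 15.99 and 24.8 with shUHRF1 in HCT116. It was 17.3 and 70.3 with shScr and 279 and 51.8 with shUHRF1 in UF1hypo. The highest sum belonged to replicate 1 of UF1hypo shUHRF1, the group in which members spread most, and the next to replicate 2 of UF1hypo shScr. Of 9 such RNAs tested in UF1hypo with knockdown, RN7SK (log2 fold change 1.93, adjusted p = 0.0431) and the histone gene H3C2 (log2 fold change 1.60, adjusted p = 0.0165) rose and SCARNA2 (log2 fold change -1.49, adjusted p = 0.0104) fell in limma. RN7SK went from 2.51 and 3.33 to 20.1 and 9.54 TPM and H3C2 from 1.59 and 0.71 to 3.97 and 7.17. SCARNA2 went from 1.48 and 2.63 to 0.14 and 0.0046 TPM, near the floor, and was at most 0.0244 TPM in HCT116. RMRP, RPPH1, SCARNA2 and SCARNA10 had 2 identifiers each, and only the first entered the sums and fits. All of these fits pooled the 8 libraries. Over all genes, 9.11% were higher and 1.89% lower at this threshold. Their part in the values of NEAT1, MALAT1 and the hosts was not tested.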

How the data were processed

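Polyadenylated RNA of 8 libraries in 4 groups of 2 was sequenced. Reads were trimmed by the authors (fastp), mapped on GRCh38 by HISAT2 2.0.4 and turned into gene abundances by StringTie 2.1.4. The deposited TPM values are scaled for length and to the same total in every library, the deposited FPKM values for length and aligned bases, and the deposited coverage signal is the mean depth over a gene's exons. No read counts were given, so counting error could not be estimated for any gene.

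TPM was summed over records of an identifier and fitted as log2(TPM + 1), computed from the deposited values, by limma 3.58.1 with a variance trend (R 4.3.3), over all 8 libraries and all annotated genes above 1 TPM in at least 1 library of the contrast. P-values were adjusted by Benjamini-Hochberg over all genes tested. A gene was called at an adjusted p below 0.05 and an absolute log2 fold change above 1. The study kept protein-coding genes, which would drop every member, so that filter was an alternative. Groups of 2 against 2 cannot go below p = 0.33 in an exact two-sided permutation test, so none was used. The fit was tested on simulated data.

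Values of every library are given for the 12 members with the highest mean TPM, for those with an adjusted p below 0.05 and for the 7 members without an SNHG name. SNHG26, SNHG21 and SNHG9 were named after their values were seen. The members and gene lists were chosen with earlier results of these data known. Mean transcript length was coverage divided by FPKM and aligned gigabases, and, over genes above 1 FPKM with the same span in GENCODE, lay within 0.1% of the exon length for every gene with 1 transcript and between both transcript lengths, with a margin of 2%, for 93.82% to 94.65% of genes with 2. SnoRNAs were placed by GENCODE version 44 and, without strand, by RefSeq. Other steps used Python 3.11.15, pandas 2.3.3 and matplotlib 3.10.9. The alternatives tried were no TPM filter, a pseudocount of 0.1, coding genes with the members, the libraries of a contrast alone, median-ratio scaling, FPKM, no variance trend, the largest record, a replicate block, a GC and length correction, each library left out and, added after seeing the data, coverage over merged exons.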

Additional observations from a re-analysis of the deposited data

Results flagged for a closer look

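SNHG12, host of 4 snoRNAs, had fitted changes of opposite sign in the 2 lines, neither of which passed. After knockdown both of its HCT116 libraries lay below both controls, and both of its UF1hypo libraries lay above theirs. Of all genes, 26.85% did the former and 32.13% the latter, and the share that did both was not computed. The difference of the knockdown effects was 0.37 on the log2 scale (SE 0.200) and did not pass in limma (adjusted p = 0.398). With 2 libraries a group, no test of a single library that stands apart was made.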

How the results depend on the processing

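Of the 17 fold changes of single members with an unadjusted p below 0.05, 0 changed direction in any alternative. These 17 were chosen by that p in the same libraries. Some alternatives, such as the replicate block, also leave every fold change as it is, so the count does not test stability. Over all 122 fold changes of members, 44 changed sign in at least 1 alternative, such as MALAT1 (-0.41 to 0.95) and ZFAS1 (-0.75 to 0.43) with knockdown in UF1hypo. The median of the members moved by less than its pooled SD between replicates, 0.14094, in every alternative. In UF1hypo with knockdown it went from -0.10365 to 0.03726 without replicate 1 of UF1hypo shUHRF1, a move at the edge of that limit and a change of sign. It also changed sign in HCT116 with knockdown under median-ratio scaling (0.03) and without replicate 1 of HCT116 shUHRF1 (0.02). In HCT116 with knockdown, 0 members had an adjusted p below 0.05, against 1 with the 4 libraries of the contrast alone, 1 with the GC and length correction and 0 to 1 when a library was left out. In UF1hypo with knockdown, 1 member was called, against 0 with the 4 libraries alone, 0 with coverage over merged exons (CYTOR is below 1 there and was not tested) and 0 to 2 with a library left out. The 3 members with an adjusted p below 0.05 became 0 with the 4 libraries alone, 1 without the TPM filter, 1 without the variance trend, 10 with the GC and length correction and 0 to 12 with a library left out, 12 without replicate 2 and 6 without replicate 1 of UF1hypo shUHRF1. The shares of all genes moved too, from 11.0% to 3.14% with the 4 libraries alone, 23.7% with the correction, and 38.3% and 15.5% without those replicates. For the difference of the knockdown effects, 0 members were called and 0 had an adjusted p below 0.05, against 1 and 3 with the GC and length correction (10.2% of all genes at the latter threshold), and 0 to 2 and 0 to 5 with a library left out. In UF1hypo against HCT116 with shScr, the 1 member called became 0 without the TPM filter, without the variance trend and with coverage over merged exons, and 0 to 1 with a library left out. The 1 member with an adjusted p below 0.05 became 0 without the TPM filter or the variance trend, 5 with the 4 libraries alone (15.8% of all genes), 5 with the GC and length correction (10.8%) and 0 to 4 with a library left out. The cause of these changes was not tested. Where a group was left with 1 library, that library was assumed to vary like the others.

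With the replicate number as a block, 1 member (CYTOR, adjusted p = 0.0287 in limma) had an adjusted p below 0.05 in UF1hypo with knockdown and 0 in UF1hypo against HCT116 (NEAT1, adjusted p = 0.0592 in limma), where 0 were called. The labels tie the numbers to no shared culture or day, and the deviations of same-numbered libraries correlated between -0.508 and 0.020, so the numbers were not treated as pairs. The tables hold no counts, so what depth limits for weak members such as SNHG22 and SNHG31 could not be computed.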
